A study of Mus musculus with 12 samples.

Results

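The Dlk1-Dio3 imprinted locus of mouse chromosome 12 was described here in lung tumours with and without the DNA methyltransferase gene Dnmt3a. Its members were taken by gene name: every probe that the array design assigns to Dlk1, Meg3 (listed there as Gtl2), Rian, Mirg, Dio3 or Rtl1. This gave 11 probes for 5 of the 6 genes, among 41174 probes on the array, and these are 5 of 20596 genes with a probe bright enough to be kept. Rtl1 had no probe under its name and was not analysed here. Dlk1 entered because its ratio of knockout (KO) over wild-type (WT) tumour was the highest of all kept probes, so the KO over WT ratios of the members are given as a description, with no test.

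The locus is a cluster of imprinted genes, which are expressed from one parental chromosome according to DNA methylation laid down in the germ line. Dlk1 (delta-like non-canonical Notch ligand 1, a transmembrane protein related to the Notch ligands), Rtl1 (a protein derived from a retrotransposon gag gene) and Dio3 (the deiodinase that inactivates thyroid hormone) are expressed from the paternal chromosome. Meg3, Rian and Mirg are long noncoding RNAs of the maternal chromosome, and Rian and Mirg also carry small nucleolar RNAs and microRNAs. RefSeq lists 113 mature microRNAs between the Dlk1 and Dio3 promoters. Dlk1 is known as a gene of fetal tissues that is largely silent in most adult organs. Microarrays of this kind do not read the small RNAs, which were not analysed here.

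The tumours came from C57/129 mice that carried a conditional, activated K-ras LSL-G12D allele, and adenovirus delivering Cre recombinase was given into the airway at 6 to 12 weeks of age. The KO tumours were homozygous for a conditional Dnmt3a allele and the WT tumours had normal Dnmt3a, so that K-ras G12D and adenoviral Cre were common to both. Each of the 12 arrays compared total RNA of KO tumour with total RNA of WT tumour in 2 dyes, the KO RNA carrying Cy5 on 6 of them and Cy3 on the other 6. By the ages and sexes in the labels (the unit of age is not given) the arrays fall into 4 pairings, called pairs A to D: replicates 1 to 4 (KO aged 47.7, WT 42.6), 5 to 8 (27 and 41.3), 9 and 10 (27 and 47.6, the WT female) and 11 and 12 (29.1 and 37.3). The labels call all 12 biological replicates but do not say whether arrays of a pair share an animal, so the errors and p-values measure the spread between arrays, which may be partly technical. Cre acts only in the cells the virus reached, and whole tumours were used, so fewer cells of a type and less RNA per cell cannot be told apart.

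Pair A lay on slide 1, pair B on slide 2, and pairs C and D on slide 3, and each slide was scanned separately. On slide 3, 59.0% to 72.2% of probes were well above background, against 81.6% to 89.6% on slides 1 and 2. Slide, scan and pair cannot be told apart, except between pairs C and D, which shared a slide and a scan. Signals of the 3 Dnmt3a probes were lower in the KO RNA on 12, 11 and 12 of 12 arrays. Their log2 KO over WT ratios ran from -1.05 to -0.08, from -0.68 to 0.1 and from -0.41 to -0.06. All 10 epithelial and all 10 alveolar type 2 markers were measured.

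The starts of 3 of the genes are shown because cytosine followed by guanine (CG) is the sequence that DNA methyltransferases modify, and because Dlk1 and Dio3 bound the locus while Meg3 opens its maternal transcripts. The windows are RefSeq's, in GRCm38.p6, plus strand, 250 bases before to 50 after the listed start, with each CG in capitals: chr12:109452573-109452872 for Dlk1, chr12:109540746-109541045 for Meg3 and chr12:110278980-110279279 for Dio3. Of the 6 genes, 5 had an entry.
Dlk1: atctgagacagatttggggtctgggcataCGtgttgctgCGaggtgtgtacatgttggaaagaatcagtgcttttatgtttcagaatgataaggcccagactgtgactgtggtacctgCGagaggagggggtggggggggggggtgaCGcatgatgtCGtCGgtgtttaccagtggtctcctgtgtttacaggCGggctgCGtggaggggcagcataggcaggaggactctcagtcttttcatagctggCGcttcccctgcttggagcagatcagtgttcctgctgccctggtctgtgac
Meg3: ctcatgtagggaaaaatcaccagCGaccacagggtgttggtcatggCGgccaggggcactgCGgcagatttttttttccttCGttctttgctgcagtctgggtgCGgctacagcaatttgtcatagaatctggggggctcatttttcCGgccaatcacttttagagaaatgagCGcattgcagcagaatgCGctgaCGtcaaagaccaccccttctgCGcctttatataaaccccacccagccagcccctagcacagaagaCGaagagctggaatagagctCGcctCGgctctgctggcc
Dio3: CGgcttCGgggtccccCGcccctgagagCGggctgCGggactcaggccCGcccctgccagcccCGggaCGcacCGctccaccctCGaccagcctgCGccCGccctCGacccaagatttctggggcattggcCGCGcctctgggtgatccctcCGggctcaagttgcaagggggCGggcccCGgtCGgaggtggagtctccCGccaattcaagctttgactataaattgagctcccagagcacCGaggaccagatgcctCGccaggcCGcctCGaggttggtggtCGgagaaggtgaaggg
The Dlk1 window held 9 CG, that of Meg3 13 and that of Dio3 25, where the median of the 32851 listed windows of this length was 7. As many or more CG were found in 45.8%, 37.9% and 18.4% of them. The starts listed for Rian and Mirg held 0 and 10. RefSeq lists a second Meg3 start, with the window chr12:109545148-109545447, which held 1 CG and no TATAAA; 94.6% of windows held as many CG or more. The letters TATAAA, searched on both strands, were in the first Meg3 window and in that of Dio3 and not in that of Dlk1, and in 13.6% of all windows. Methylation was not measured on these arrays.

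Dlk1 stood far above WT in the KO RNA on most arrays but not on all. Its probe 2, the brighter of its 2 probes (at chr12:106981689-106981748 in mm7, the build of the array's annotation, plus strand), gave log2 KO over WT ratios of 3.94, 3.18, 3.81 and -1.76 on the 4 arrays of pair A. In pair B the ratios were 2.46, -0.58, 4.42 and -1.54, in pair C 1.91 and 5.45, and in pair D 3.49 and 4.41. Thus 9 of 12 arrays were above 0 and replicates 4, 6 and 8 were below it. All 3 arrays below 0 had KO RNA in Cy3. The mean ratio was 3.67 ± 1.29 (SD, n = 6) with KO in Cy5 and 1.20 ± 2.79 (SD, n = 6) with KO in Cy3. The cause of this difference was not tested. Fitted over all 12 arrays with a dye term, the log2 ratio was 2.50 ± 0.63 (SE, n = 12), or 5.66-fold. Without the dye term it was nearly the same, at 2.49. Probe 1 (mm7, chr12:106981450-106981509) gave 2.17 ± 0.58 (SE, n = 12), was below 0 on the same 3 arrays, and correlated with probe 2 at r = 0.99 over the arrays.

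The levels behind these ratios show that both RNAs varied widely (a level is the log2 normalized signal of the probe in one RNA, which can be compared between RNAs but not between probes). In KO RNA the level of probe 2 was 16.49, 14.82, 15.54 and 14.41 in pair A, 11.54, 12.04, 15.76 and 15.84 in pair B, 17.49 and 17.66 in pair C, and 16.20 and 17.94 in pair D. In WT RNA it was 12.55, 11.64, 11.72 and 16.16 in pair A, 9.07, 12.62, 11.33 and 17.37 in pair B, 15.58 and 12.21 in pair C, and 12.70 and 13.53 in pair D. The WT readings on replicates 4, 8 and 9 lay among those of KO RNA, and the KO readings on replicates 5 and 6 lay among those of WT RNA. Of the 12 WT levels, 10 lay within the range of the KO levels. The range was 84.6-fold among KO RNAs and 315-fold among WT RNAs. The low ratios of replicates 4 and 8 accompanied a high WT level; the KO levels of these arrays, 14.41 and 15.84, were within the range of the other KO RNAs. Ordered by mean, the levels ran from KO of pair C (17.58) and pair D (17.07) to KO of pair A (15.31). Then came WT of pair C (13.89), KO of pair B (13.79) and the WT RNAs of pairs D, A and B (13.11, 13.02 and 12.60). The one step between neighbours larger than their spread was that from KO of pair D to KO of pair A. That step runs from slide 3 to slide 1. The mean level of this probe over both RNAs was 1.73 higher on slide 3 than on slides 1 and 2. Slide and tumour therefore cannot be told apart in that step.

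**Figure D1:**
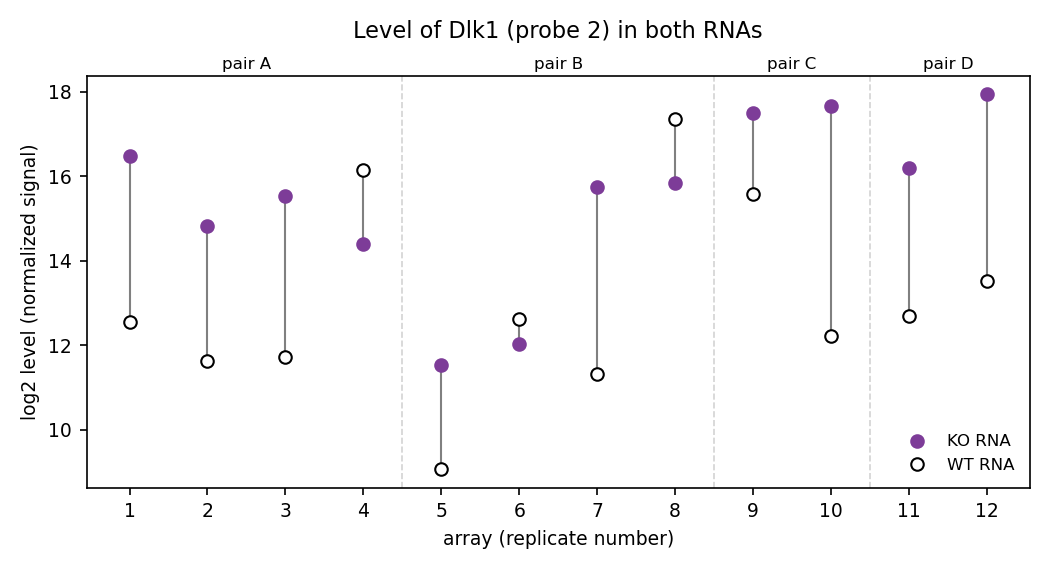
Level of Dlk1 (probe 2, log2 normalized signal, y axis) in KO RNA (filled) and WT RNA (open) on each of the 12 arrays (x axis), joined by a line for each array, with dashed lines between the pairs. On replicates 4, 6 and 8 the WT level lies above the KO level, and the WT levels range from 9.07 to 17.37.

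Meg3, the first of the maternal RNAs, was read by 5 probes whose ratios disagreed in size. The fitted log2 ratios were 0.81 ± 0.31 for probe 1, 0.25 ± 0.15 for probe 2, 0.38 ± 0.22 for probe 3, 0.40 ± 0.25 for probe 4 and 0.94 ± 0.36 for probe 5 (SE, n = 12 each), in order along the chromosome from mm7 position 107070994 to 107092756. Probe 5, the brightest, gave 3.00, 0.32, -0.08 and 2.45 in pair A, -0.83, 0.29, 0.59 and 0.05 in pair B, 0.09 and 2.00 in pair C, and 1.20 and 1.98 in pair D. Replicates 1, 4, 10, 11 and 12 were high and the other 7 arrays lay within 1 log2 unit of 0. Probes 1 and 5, which lie at the ends, correlated at r = 0.96 over the arrays, and probes 3 and 4 at r = 0.98, while probe 1 with probe 3 gave r = 0.63. The probes also disagreed on replicate 4, where probes 1 and 5 read 2.41 and 2.45 but probes 3 and 4 read -0.18 and -0.08.

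The level of Meg3 differed more between slides than between genotypes. For probe 5 the mean level was 10.22 over the 16 readings of slides 1 and 2 (range 8.63 to 14.16) and 14.33 over the 8 readings of slide 3 (range 12.68 to 15.66), a difference of 4.11 on the log2 scale. No other of 35515 kept probes with a level had a larger rise on slide 3, and 1 had a larger rise than probe 1 of Meg3 (3.67). Both KO and WT RNAs of slide 3 were high, and of the readings on slides 1 and 2 only the KO RNA of replicate 4, at 14.16, reached into their range. The other Meg3 probes differed by 1.15 to 1.75 and both Dlk1 probes by 1.71 and 1.73. Rian probe 2 was lower on slide 3 by 0.84 (slide 3 minus slides 1 and 2, -0.84), Mirg was at 0.34 and Dio3 at -0.01, and the median over all kept probes was -0.06. The tumours of slide 3 are those of pairs C and D, so their animals, their slide and their scan cannot be told apart. Ratios within an array are taken between RNAs of the same slide: by pair, the mean ratio of probe 5 was 1.42 ± 1.53 (SD, n = 4) in A, 0.02 ± 0.61 (SD, n = 4) in B, 1.04 ± 1.35 (SD, n = 2) in C and 1.59 ± 0.55 (SD, n = 2) in D.

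**Figure D2:**
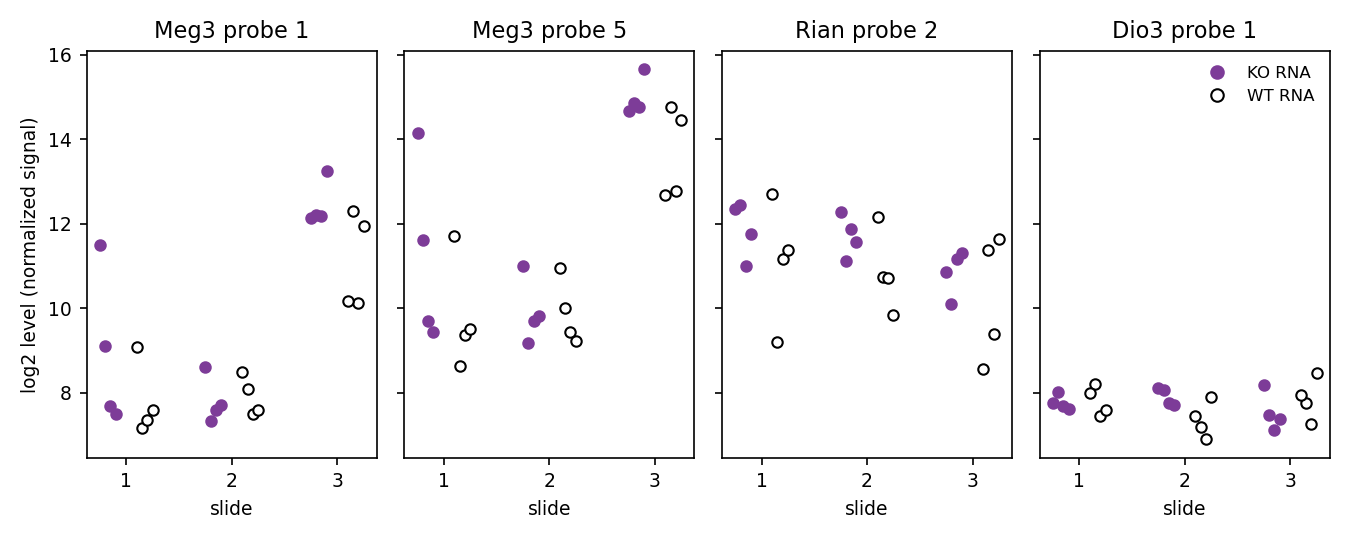
Log2 level (y axis) of Meg3 probes 1 and 5, Rian probe 2 and Dio3 in KO RNA (filled) and WT RNA (open) of every array, by slide (x axis). Both Meg3 probes are higher on slide 3 in both RNAs (by 3.67 and 4.11 in the mean), Rian probe 2 is lower there, and Dio3 differs by -0.01.

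Rian and Mirg, further along the maternal transcripts, also had fitted ratios above 0. Rian probe 2 gave 3.23, -0.17, 0.39 and -0.35 in pair A, 0.37, 1.13, 1.74 and 0.13 in pair B, -1.26 and 1.77 in pair C, and -0.34 and 2.29 in pair D, a fitted 0.74 ± 0.40 (SE, n = 12). It was high on replicates 1, 7, 10 and 12 and below 0 on 4 arrays. Rian probe 1 was dim, well above background in 10 KO and 7 WT RNAs, and gave 0.29 ± 0.14 (SE, n = 12). The single Mirg probe gave 2.65, 0.78, 0.93 and -0.11 in pair A, 0.25, -0.63, 1.02 and -0.33 in pair B, 0.43 and 1.09 in pair C, and 1.33 and 1.85 in pair D. Its fitted ratio was 0.79 ± 0.26 (SE, n = 12), or 1.73-fold, and it was below 0 on 3 arrays, replicates 4, 6 and 8, as Dlk1 was.

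Dio3, at the far end, showed a fitted ratio near 0, at 0.05 ± 0.17 (SE, n = 12). Its arrays ran from -1.08 (replicate 11) through a median of -0.06 to 0.88 (replicate 5), with 6 above and 6 below 0, and the KO levels (7.12 to 8.18) lay within the WT levels (6.90 to 8.47). In pair B 3 of its 4 ratios were at 0.67 or more.

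**Figure D3:**
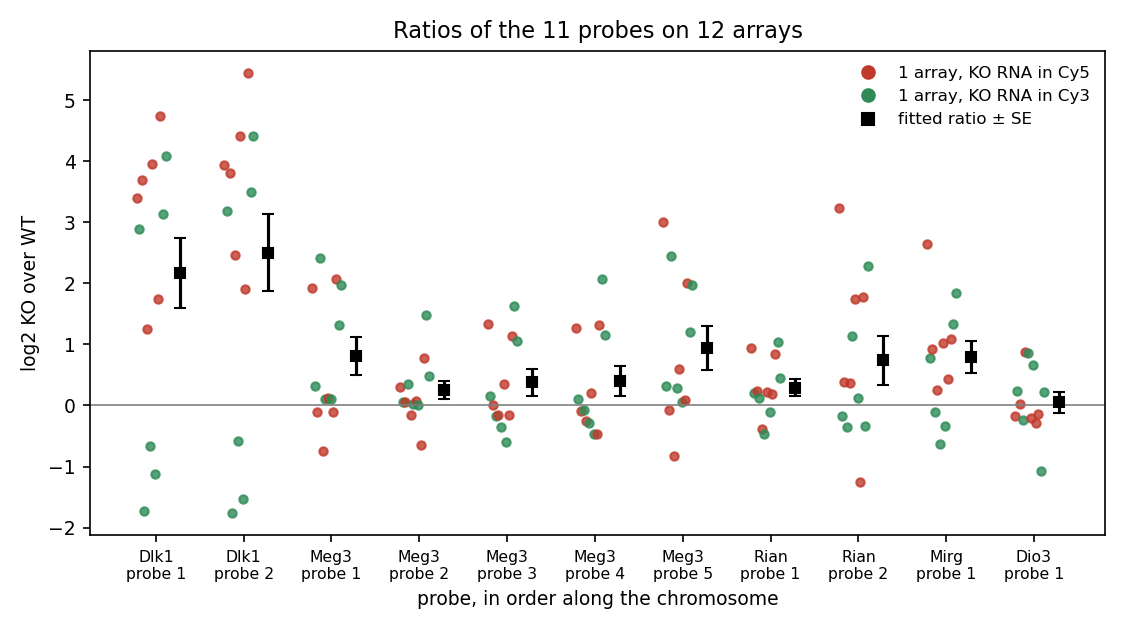
Log2 KO over WT ratio (y axis) of the 11 probes (x axis, in chromosomal order) on each of the 12 arrays, red where KO RNA was in Cy5 and green where it was in Cy3; the black square is the fitted ratio with its SE. Dlk1 spans from -1.76 to 5.45. The maternal RNAs lie mostly above 0, but Meg3 probes 3 and 4 only on 6 of 12 arrays. Dio3 is centred near 0.

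All 11 probes had a fitted ratio above 0, with a median of 0.74 against -0.0026 over all kept probes. Meg3 probes 3 and 4 and Dio3 were above 0 on only 6 of 12 arrays, with array medians of 0.07, 0.02 and -0.06. Within slide 2, which held only pair B, the ratios of Meg3 probes 1 to 4 were -0.10, -0.02, -0.19 and -0.20. That of Rian probe 1 there was -0.19. Only probe 2 of Dlk1 passed an adjusted p of 0.05 (limma, Benjamini-Hochberg adjustment over all kept probes), where 5.71% of the 35562 kept probes did; this contrast chose the locus, and nothing is read from the count. The spread of the members between arrays was wide: the SD of probe 2 of Dlk1 over the arrays was 2.44, where the median SD of the kept probes was 0.26. Without replicate 1, 2, 3, 7, 10, 11 or 12 no member probe passed, and without replicate 4 or 5 the count was 2.

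Whether the KO over WT ratio differed between the 4 pairs was tested for each probe with an F test in limma, a difference the choice of the locus did not use. None of the 11 probes passed an adjusted p of 0.05 (lowest 0.265, for Mirg), and 0.368% of the 35349 probes tested passed. An unadjusted p under 0.05 was reached by 4 of the 11 and by 4446 of the 35349. By pair, the mean ratio of Dlk1 probe 2 was 2.30 ± 2.72 (SD, n = 4) in A, 1.19 ± 2.75 (SD, n = 4) in B, 3.68 ± 2.50 (SD, n = 2) in C and 3.95 ± 0.65 (SD, n = 2) in D, so that the arrays of pair A, B or C differed by as much as the pairs did. Both arrays of pair C had KO RNA in Cy5 and both of pair D in Cy3, so in these means the pair and the dye cannot be told apart. Pairs A and B each had a slide and a scan of their own. Except between C and D, the F test therefore cannot tell a difference between pairs from one between slides or scans.

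Across the arrays the ratio of Mirg followed that of Dlk1, while for Meg3 and Rian the relation to Dlk1 depended on the probe. Over the brightest probe of each gene there are 10 gene pairs, each tested by permuting the arrays 100000 times, two-sided, with Benjamini-Hochberg adjustment over the 10. Dlk1 and Mirg gave Pearson r = 0.79 (permutation p = 0.00168, adjusted 0.0168) and Spearman rho = 0.83 (permutation p = 0.00118, adjusted 0.0118; n = 12), with the same sign on 12 of 12 arrays. Without the 2 arrays farthest from the median of Dlk1 (replicates 4 and 8) r was 0.74, within slides 1 and 2 it was 0.78 (n = 8), and on slide 3 it was 0.62 (n = 4). Dlk1 and Meg3 gave r = 0.18 and rho = 0.34 (permutation adjusted p = 0.636 and 0.362), which was 0.52 without replicates 4 and 8, -0.06 on slides 1 and 2 and 0.96 on slide 3. Dlk1 and Rian probe 2 gave r = 0.47 and rho = 0.71 (permutation adjusted p = 0.174 and 0.0622). None of the other 7 pairs passed after adjustment; the highest r among them was that of Rian with Mirg, 0.62 (permutation adjusted p = 0.159), which fell to 0.12 without replicates 1 and 12. These probes share their arrays, and arrays of a pair may share animals. The ratios kept any dye effect, and the arrays were permuted freely across dyes and pairs. The fitted dye term was 1.30 for Dlk1 probe 2 and 0.33 for Mirg. The permutation p-values may therefore be too small, and the part of dye and pair in r was not tested. Among the dimmer probes, which were not tested, Meg3 probe 3 had r = 0.72 and rho = 0.81 with Dlk1 probe 2, Meg3 probe 4 had r = 0.61 and rho = 0.73, and Rian probe 1 had r = 0.62 and rho = 0.74.

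**Figure D4:**
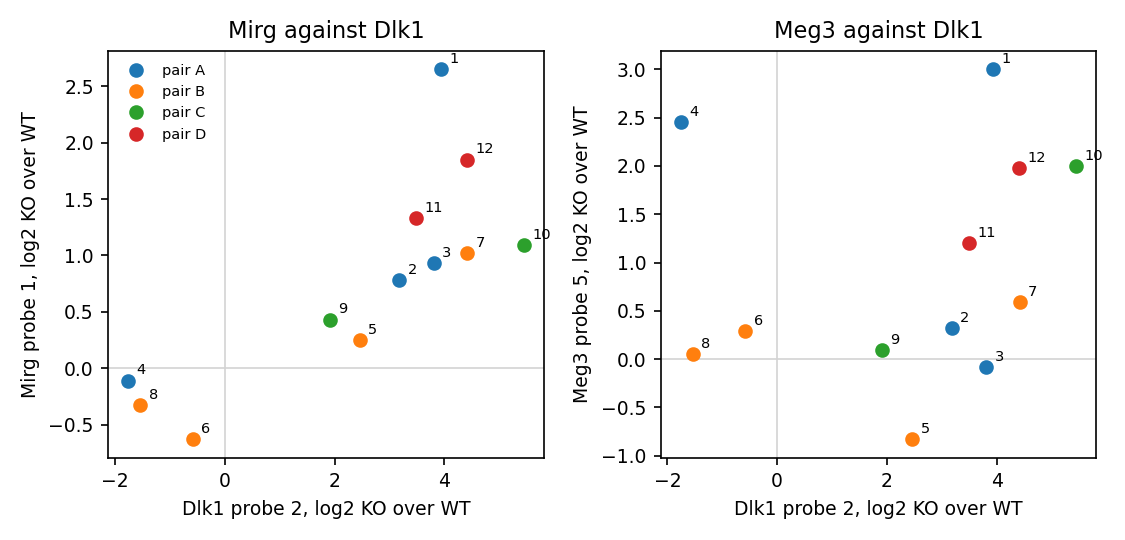
Log2 KO over WT ratio of Mirg (left, y axis) and of Meg3 probe 5 (right, y axis) against that of Dlk1 probe 2 (x axis), 1 point for each array, numbered by replicate and coloured by pair. Mirg is below 0 on replicates 4, 6 and 8, where Dlk1 also is (r = 0.79), while Meg3 is high on replicate 4 (r = 0.18).

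Beyond its own members, the genes whose ratios were most like that of Dlk1 over the 12 arrays were 9430098F02Rik, D930021N14, Coprs, 2610209C05Rik, 4930573I19Rik, 4930404A10Rik, 0610025J13Rik, A730041O05Rik, Rnf214 and Tmem16d, with Pearson r from 0.91 down to 0.84. Their own fitted ratios lay between -0.13 and 0.04, far smaller than that of Dlk1. The most opposed were Acadm (r = -0.92), Septin12 (-0.90), Vill (-0.88), Abcc1 (-0.87) and Tnnt2 (-0.87). Mirg ranked 39 of the 20005 genes with a value on every array, Rian 1907, Meg3 6374 and Dio3 16731. With Spearman's rho only 3 of those 10 genes stayed among the 10 most alike, so the names are loosely fixed by 12 arrays.

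The region around the members was read by other probes, which were not chosen by their values. Between Dlk1 and Dio3 lay 6 further probes, of which 2 were kept, and both, named after their values were seen, rose in KO tumours. NAP070880-1, an array design name without a gene (mm7, chr12:107348117-107361914, plus strand, beyond Mirg), was above 0 on 12 of 12 arrays, from 0.03 to 1.22, with a fitted log2 ratio of 0.61 ± 0.0651 (SE, n = 12; limma adjusted p = 0.000765). Dio3as, the antisense transcript of Dio3 (mm7, chr12:107795497-107795556, minus strand), was above 0 on 12 of 12 arrays, from 0.08 to 0.73, with 0.26 ± 0.0526 (SE, n = 12; limma adjusted p = 0.0182). The Dio3as probe was dim, well above background in 11 KO and 9 WT RNAs, and its ratio was 0.49 with Agilent's processed signals. Both probes moved less between arrays than the members did, with SDs of at most 0.30. The part of low signal in the small spread of Dio3as was not tested. The other 4 missed the filter of 6 arrays: AK086774 was well above background in 4 KO and 2 WT RNAs, B830012L14Rik in 1 and 1, and AK049674 and 4930511J24Rik in none.

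Outside the locus the ratios were centred near 0. Of 23 kept probes on the Dlk1 side 1 rose and 0 fell, with a median of -0.05, and of 25 on the Dio3 side 0 passed, with a median of 0.03. The nearest measured gene on the Dlk1 side was Wdr25, at -0.03 and 0.01 by its probes, and the nearest named one on the Dio3 side was Ppp2r5c, at 0.20, 0.07 and -0.04. The probe that rose was that of Evl, a regulator of actin filaments, at 0.51 ± 0.133 (SE, n = 12; limma adjusted p = 0.0464), and this call was lost when any 1 array other than replicate 6 or 9 was left out (adjusted p from 0.0577 to 0.0999).

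**Figure D5:**
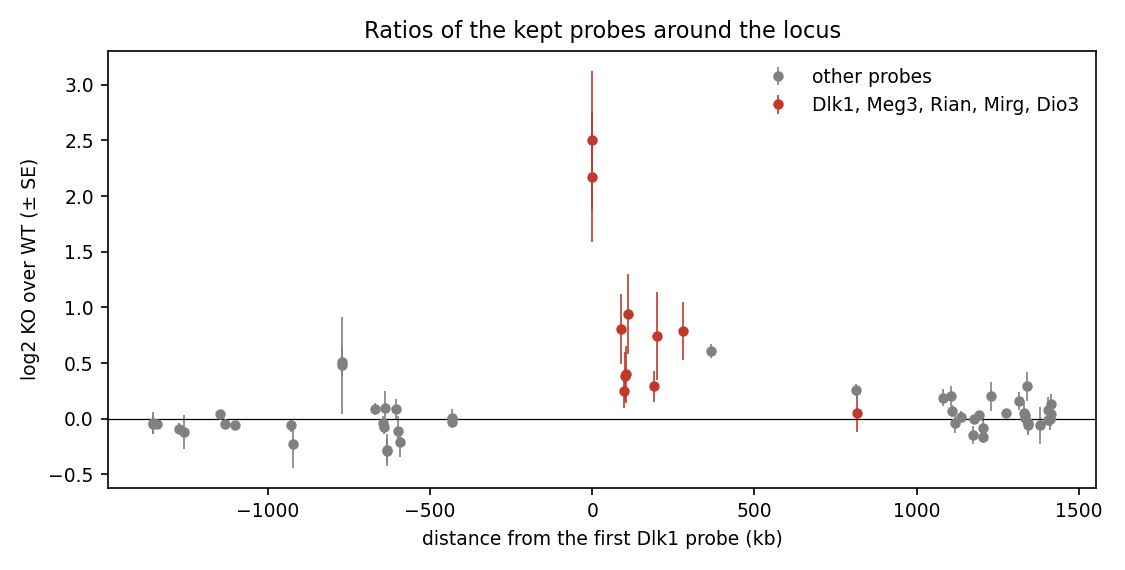
Fitted log2 KO over WT ratio with its SE (y axis) of the kept probes around the locus against their distance from the first Dlk1 probe in kb (x axis); members in red, other probes in grey. The members lie above 0 except Dio3, which is near 0 (0.05 ± 0.17). The probe of NAP070880-1 at 366.7 kb is at 0.61, and the probes on both sides have medians of -0.05 and 0.03.

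Genes that act with the members were read from lists by gene, each gene by its brightest kept probe, where 7.15% of the 20596 genes passed an adjusted p of 0.05 (695 higher, 777 lower; limma). In the list of relatives of Dlk1 and genes of the Notch pathway, which Dlk1 is known to dampen, Dlk2 had no probe under its name. Of the 26 genes measured, 1 rose and 7 fell, with a median of -0.05. Among the 7 were Notch4, a receptor of endothelium, at -0.59 ± 0.0856 (below 0 on 12 of 12 arrays; limma adjusted p = 0.00305), Notch3, a receptor of pericytes and smooth muscle, at -0.82 ± 0.135 (limma adjusted p = 0.00560), Mfng, which adds sugars to Notch, at -0.40 ± 0.0735 (limma adjusted p = 0.00984), and Heyl, a target of Notch, at -0.60 ± 0.122 (limma adjusted p = 0.0159; SE, n = 12 for each). Hes1, another target, was the one that rose, at 0.25 ± 0.0673 (SE, n = 12; limma adjusted p = 0.0465); it is named after its value was seen, and its call held only without replicate 8 or 10 (adjusted p up to 0.0958 without another array). Over the same arrays 9 of 10 endothelial markers fell, with a median of -0.74 and list means of 9.72 to 10.21 in KO against 10.41 to 11.10 in WT RNA, among them the 4 of smallest p, Cdh5, Pecam1, Erg and Ramp2 (-0.83, -0.65, -1.0 and -0.95), and 5 of 9 pericyte and smooth muscle markers fell, Notch3 among them, with a median of -0.43 (3 to 5 calls without 1 array, Cspg4 passing only without replicate 1, 5 or 8, and Des failing without replicate 1 or 3). Among the endothelial markers that fell, Kdr lost its call without replicate 1, 3, 4, 6, 7, 9, 10 or 12. Of the 7 Notch genes that fell, Hey1 lost its call without replicate 1, 2, 3, 4, 6, 7, 8, 9 or 10. Kdr and Hey1 are named after their values were seen. The part of the endothelial, pericyte and smooth muscle markers in the Notch counts was not tested. Over the arrays the ratios of the 7 Notch genes that fell correlated with that of Dlk1 at r from -0.62 to 0.02. Notch3 was at -0.16 and Notch4 at -0.38.

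Of 21 measured genes that handle thyroid hormone, the substrate of Dio3, 0 rose and 2 fell: Slc7a5, an amino acid transporter that also carries thyroid hormone, at -0.57 ± 0.0926 (limma adjusted p = 0.00514), and Rxra, the partner of the thyroid hormone receptors, at -0.50 ± 0.0961 (limma adjusted p = 0.0127; SE, n = 12 for each). Of 20 measured genes that set or keep imprints 1 rose, Suz12, a subunit of Polycomb repressive complex 2, at 0.27 ± 0.0644 (SE, n = 12; limma adjusted p = 0.0306). That call was lost without replicate 3, 7, 8, 9 or 12, when the list had 0 calls.

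Other imprinted genes passed in both directions. Of 29 measured genes of the imprinted gene network outside this locus 2 rose, Nnat, a small membrane protein of developing neurons, at 0.97 ± 0.247 (limma adjusted p = 0.0377) and Sgce, a sarcoglycan, at 0.87 ± 0.223 (limma adjusted p = 0.0394), and 1 fell, Grb10, an adaptor that restrains growth, at -0.66 ± 0.0580 (below 0 on 12 of 12 arrays; limma adjusted p = 0.000364; SE, n = 12 for each). Their median was -0.05. Without replicate 1, 4, 6, 7, 9 or 12 the list had 1 call: Nnat also failed without replicate 2, 8 or 10 and Sgce without replicate 3, while Grb10 passed without any 1 array. Of 9 measured relatives of Rtl1 among the genes derived from retrotransposon gag, none passed, with a median of 0.05.

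Because Dlk1 marks fetal cells and some specialised adult cells, the marker lists of other tissues and cells were set beside it. The lists were chosen with earlier results of these data known, so their counts are a description. Over all 20596 genes 7.15% passed, 695 higher and 777 lower. Of 12 fetal and oncofetal lung markers 3 rose and 0 fell, with a median of 0.48: Tpbg, a trophoblast glycoprotein, at 1.82 ± 0.203 (limma adjusted p = 0.000790), Hmga2, a fetal chromatin protein, at 1.60 ± 0.309 (limma adjusted p = 0.0126), and Id2, a marker of the tips of the embryonic airway, at 0.99 ± 0.264 (limma adjusted p = 0.0449; SE, n = 12 for each). Over the arrays Id2 had r = 0.75 with Dlk1, Hmga2 -0.06 and Tpbg 0.11, and the mean of the list 0.43. The calls of Tpbg and Hmga2 held without any 1 array, and that of Id2 only without replicate 4, 5 or 8, so that the list had 2 to 5 calls. Of 13 measured neuroendocrine markers, a cell type in which Dlk1 is known, 0 passed and the median was -0.02. The lists of mesothelium, muscle, thyroid and thymus, nerve and glia, and adrenal and placenta had 0 calls each. Over all the marker lists the correlation of the mean ratio with that of Dlk1 ran from -0.60 for epithelium to 0.46 for alveolar type 2. Club cell, macrophage and lymphocyte lists had 0 calls; among epithelial markers 1 of 10 rose (Cldn3, 0.57), among alveolar type 2 markers 2 of 10 fell (Lamp3 and Etv5, -0.78 and -0.59), and among fibroblast markers 1 of 10 rose (Lum, 1.13). Of these 4 calls, that of Cldn3 was lost without any 1 of 10 arrays (all but replicates 5 and 6), that of Lamp3 without replicate 1, 3, 4, 6, 7, 9 or 12, that of Etv5 without replicate 2, 4, 7, 8, 9 or 12, and that of Lum without replicate 1, 3, 4, 6, 7, 9, 10 or 12. The part of these cells in the levels of Dlk1 was not tested.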

How the data were processed

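Total RNA of mouse lung tumours was labelled with Cy3 and Cy5 and hybridised to 12 Agilent 014868 arrays. The spot intensities deposited by the authors come from Feature Extraction 10.1.1.1, per the file headers. The deposited log2 ratios, used as an alternative, were compared with the ratios computed here on every array. Over probes well above background in both RNAs they matched (r of at least 0.992, slope 1.01 to 1.05). Their column medians were near 0, so their scale, centring and direction are known. For them limma is named per the submitters' processing notes. Mean signals were background-corrected (normexp, offset 50, outlying local backgrounds replaced by the array's median), loess-normalized, averaged over spots without outlier flags and turned to KO over WT with limma 3.58.1 (R 4.3.3). Levels are the same signals after loess and Aquantile scaling between arrays. Probes well above background in KO or in WT RNA on at least 6 arrays were kept (35562 of 41174). Ratios were fitted with a dye term and the pair as a random block on the turned ratios (duplicateCorrelation, consensus correlation 0.0794), an F test compared the pairs, and p-values were adjusted over all kept probes or genes. Gene names came from RefSeq by accession for 23075 probes and from the files for 11637, and 6462 had none. The number of arrays limits the precision.

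The members, the gene lists and the tests were chosen with earlier results of these data known. The text names every member probe, the 10 genes most like and the 5 least like Dlk1 over the arrays, the 5 most like each other member, up to 4 called genes of smallest p in each list, the nearest measured neighbours, and Dnmt3a as a check of the labels. Alternatives changed the background correction, normalization, dye term, block, weights, variance model, filter and threshold, and left out arrays, pairs or slides.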

Additional observations from a re-analysis of the deposited data

Results flagged for a closer look

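Among 66 groups of 4 arrays (the ratio and both levels of each of the 11 probes in pairs A and B), 5 values lay far from the other 3 by Dixon's criterion, where chance alone marks about 1 in 20 groups. In pair A the Dlk1 ratio of replicate 4 was low by both probes, at -1.73 and -1.76, where the other 3 arrays of the pair were at 2.89 or more. Replicate 1 of pair A was high for Meg3 probe 4, at 1.27, and for Rian probe 1, at 0.94. Replicate 5 of pair B was low for Meg3 probe 1, at -0.75. The causes of these values were not tested.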

How the results depend on the processing

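Of 351 values of the member ratios, under up to 32 alternatives a probe, 338 were above 0; 8 of the other 13 were those of Dio3, which ranged from -0.32 to 0.55. Dlk1 ranged from 0.85 to 3.42 (probe 1) and from 1.19 to 3.82 (probe 2), and only Rian probe 1 moved by over 1 SD between arrays, to 1.07 with Agilent's processed signals. The r of Dlk1 with Mirg ranged from 0.68 to 0.88. No member probe passed between the pairs under the 21 alternatives run.

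The number of member probes past the threshold, 1 here, was 2 with Agilent's processed signals, with independent arrays, with array weights or with probes well above background on all arrays, and 3 with equally weighted pairs. It was 0 with median centring, no dye term, the mean of each pair, the trended robust variance, a threshold of 0.01, without pair A, B, C or D and within slide 1, 2 or 3, and 0 to 2 without 1 replicate. The share of all probes past the threshold ranged from 0% to 10.8%. With local backgrounds as deposited 61.6% of the calls were higher, against 49.6%.

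Of the 8 calls in the Notch list, 5 remained in number with local backgrounds as deposited or without pair B, 3 without pair C or at a threshold of 0.01, 2 without pair A, 1 with median centring, and 0 with the mean of each pair and within slides 1, 2 and 3. The thyroid hormone list (2) had 1 call without pair B, without pair C or at 0.01, and 0 with median centring, the mean of each pair, without pair A and within each slide. The imprinted gene network (3) had 1 with median centring, the robust variance, without pair A or C or at 0.01, 0 within each slide, and at least 1 without 1 replicate. Imprint upkeep (1) had 2 with equally weighted pairs, and 0 with Agilent's processed signals, median centring, the mean of each pair, the robust variance, the mean of the probes of a gene, a threshold of 0.01, without pair A, C or D and within each slide. Neighbouring genes (1) had 0 with median centring, the mean of each pair, the robust variance, at 0.01, without pair A or B and within each slide. Without 1 replicate the last 2 lists had 0 or 1 call. Within a slide, with 4 arrays, limma called at most 1 of all kept probes.

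NAP070880-1 kept its call in 29 of 33 alternatives (ratio 0.57 to 0.70), losing it with the mean of each pair (adjusted p = 0.0795) and within each slide. Dio3as kept it in 22 of 32 (0.17 to 0.49) and Evl in 11 of 33 (0.29 to 0.76). Of the 10 genes most like Dlk1, 5 stayed among the 10 with the deposited log2 ratios and 3 with Spearman's rho. Signal over background limits Rian probe 1 most, well above background in 7 of 12 WT RNAs.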

Other observations

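The genes most like the other members over the 12 arrays had Pearson r of 0.82 or more, as a description from arrays the genes share. With Meg3 probe 5 these were Fam168b, Usp40, 9130004C02Rik, Ing5 and 1600027N09Rik (r of 0.89 to 0.86). With Rian probe 2 they were Scgb1b2, 1700006H03Rik, Grm4, Sp5 and St6gal1 (0.86 to 0.82). With Mirg they were Anapc5, Lztr1, Ints7, Ankrd28 and Rab3gap2 (0.93 to 0.88), and with Dio3 they were Fgg, the gamma chain of fibrinogen, Smim5, Tuba1a, an alpha tubulin, Cldn10, a tight junction protein, and Barx2, a homeobox factor (0.95 to 0.89). The genes listed for one member were not among those listed for another.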
